A study of Mus musculus with 20 samples.

Results

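Sense intronic transcripts are long non-coding RNAs annotated inside an intron of another gene, on the same strand and without sharing its exons. The members described here are the genes of the deposited count table that GENCODE M21 types as sense_intronic and that reach at least 50 counts summed over the 20 libraries. They number 184 of the 327 genes of the class, and of 55471 genes in the table. Of the other class genes, 70 had no count and 73 had between 1 and 49. The members were thus chosen by measured values, namely these summed counts, which ran from 50 to 7120 with a median of 294.5. Just inside the limit lay Gm14376 with 50 counts, Gm43113 with 51 and Gm45715 with 53, and just outside it lay Gm28792 with 47, Gm43065 with 46 and Gm15634 with 40.

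The libraries come from SIMS cells, a mouse salivary gland epithelial line grown in DMEM with fetal bovine serum. The 5 groups are wild type, Btbd7 KO, and clones 1, 2 and 3 of Zcchc8 KO, with 4 libraries each, and the knockouts were made with CRISPR/Cas9. The Btbd7 KO line is named as the negative control. Each Zcchc8 KO group is 1 clone, and the labels do not say that replicates are separate cultures, so p-values measure the spread between these libraries, which may be technical. The sum rule includes the knockout libraries, so a transcript present mainly in the clones could enter through them. This concerns members with under 50 counts over the 8 wild-type and Btbd7 KO libraries together. Under 20 counts there had 7 members, of which 2, AC122252.1 and Gm42699, could be tested. Both were called higher in the clones, as the rule made likely, so they are described without those tests. Gm43514, Gm43577, Gm11722, Gm49617 and Gm49512 also rose and needed the clones to reach 50. Where named below, their fold changes in the clones are descriptions too. The counts of risen members include all of these.

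ZCCHC8 is the scaffold of the nuclear exosome targeting complex (NEXT), in which it joins the RNA-binding protein RBM7 and the helicase MTREX. NEXT binds short, mostly unspliced nuclear transcripts near their free 3′ end and hands them to the nuclear RNA exosome, which degrades them from that end. Its known substrates include promoter upstream transcripts (PROMPTs), enhancer RNAs, prematurely terminated transcripts from the first part of genes, and RNA from introns. A sense intronic gene shares its strand with the host's unspliced precursor, so reads over it can come from its own transcript or from the retained intron, and counts alone do not tell these apart.

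Ends of the annotated transcripts are shown for the members that the comparison with Zcchc8 KO turns on, because a polyadenylation signal near the 3′ end marks one way in which such RNAs can end. The last 60 bases of the longest annotated transcript are written 5′ to 3′, with AATAAA and ATTAAA in capitals.
Gm29170: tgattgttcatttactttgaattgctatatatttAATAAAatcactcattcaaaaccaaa
Gm17491: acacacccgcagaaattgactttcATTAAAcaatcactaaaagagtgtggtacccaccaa
AC166575.1: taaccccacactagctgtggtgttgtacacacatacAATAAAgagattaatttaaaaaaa
Gm15903: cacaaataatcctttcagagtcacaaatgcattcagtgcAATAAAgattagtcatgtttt
Gm43514: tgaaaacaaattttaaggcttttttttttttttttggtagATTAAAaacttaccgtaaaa
Gm42702: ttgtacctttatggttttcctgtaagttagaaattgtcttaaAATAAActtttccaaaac
Gm42699: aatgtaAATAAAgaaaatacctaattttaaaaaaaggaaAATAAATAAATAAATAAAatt
AC122252.1: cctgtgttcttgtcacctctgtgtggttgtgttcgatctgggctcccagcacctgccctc
Gm29358: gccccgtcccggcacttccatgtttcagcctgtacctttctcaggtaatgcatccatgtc
AC122252.1 and Gm29358 carry neither hexamer in these 60 bases, the others carry one, and Gm42699 carries a run of overlapping AATAAA copies. Searched on the transcript strand only, AATAAA or ATTAAA stood in the last 50 bases of 28.5% of 200 transcripts of members and of 38.8% of 18432 long non-coding transcripts in the annotation. The share was 10 of 25 transcripts (40%) for members called higher in the clones and 25.2% for those of the other tested members. A hexamer is a match of letters and not a mapped end.

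The first 100 bases are shown for Gm29170 and Gm43514, which start 370 and 212 bases from the starts of Uchl5 and Abraxas1. No splice donor of the form GTAAGT or GTGAGT stands in either stretch.
Gm29170: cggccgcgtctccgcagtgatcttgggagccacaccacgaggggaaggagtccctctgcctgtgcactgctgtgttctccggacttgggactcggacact
Gm43514: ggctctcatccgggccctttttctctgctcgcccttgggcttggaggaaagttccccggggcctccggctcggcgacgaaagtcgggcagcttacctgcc
Over the first 200 bases such a donor stood in 9% of the members' transcripts and in 6.77% of all long non-coding ones.

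In GENCODE M21 on GRCm38, the members lie in 148 host genes, of which 132 hold 1 member and 16 hold several. Magi3 holds 11 members, Cdk14 holds 7, and Man1a2 and Rap1a hold 4 each. The host was protein-coding for 180 members, and 6 members lie within more than 1 host. By position, 66 members lie in intron 1 of the host, 28 in intron 2 and 80 in a later intron, and 10 do not lie within a single intron. Their starts lie between 204 and 597685 bases from the host's start, with a median of 31639. A single exon is annotated for 101 members, 2 exons for 73 and more for 10. Chromosome 3 carries 47 members, or 25.5%, against 20.2% of the whole class and 5.21% of all placed genes of the table. Exons of another gene overlap 11 members on the opposite strand and 3 on the same strand, and reads over such exons may be shared. Gm29170 is one of the 3, since the small nucleolar RNA gene Gm25663 lies within it.

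Total gene counts per library ran from 6833258 to 17771804, with clone 1 the shallowest group. Wild-type replicate 1 stood apart, with 14245 genes detected against 17442 to 20889 in the others, and with 113 members detected against 166 to 184. Main results for the clones that rest on it are therefore given with and without it. Zcchc8 RNA was 65.1 ± 2.92 CPM in wild type (SD, n = 4; CPM is the count scaled to library size, with TMM factors) and 60.3 ± 4.28, 23.3 ± 1.35 and 54.6 ± 4.84 in clones 1, 2 and 3. An edit that ends the reading frame need not lower the RNA summed over the gene, so these values do not check the loss of the protein. Btbd7, the targeted gene of the control line, was at 202 ± 7.64 CPM in wild type and 99.2 ± 3.23 in Btbd7 KO. The epithelial markers Krt7, Krt8, Krt18, Krt19, Epcam, Cdh1, Cldn4 and Sox9 were at or above 111 CPM in every library. By edgeR, Krt7, Krt8 and Krt18 fell in the mean of the clones (log2 fold changes -0.59, -0.38 and -0.46, adjusted p = 0.000165, 0.00308 and 1.38e-05). Krt19, Epcam, Cdh1, Cldn4 and Sox9 were not called there. The acinar marker Aqp5 fell in the clones (-0.42, adjusted p = 7.24e-07) and in Btbd7 KO (-0.68, adjusted p = 6.86e-08). Bhlha15 and Myh11 reached at most 2.13 and 1.45 CPM. Of acinar markers Aqp5 was at 108 to 187 CPM, while Amy1, Prol1 and Dcpp1 reached at most 1.76, and Krt14, listed for myoepithelial cells, was at 161 to 419 CPM and fell in the mean of the clones (log2 fold change -0.52, adjusted p = 2.63e-05), with Cnn1 and Acta2 at most 0.145. Of 5 fibroblast markers Thy1 and Lum were at 0, while Col1a1 was at 8.65 to 26.6 CPM and rose in the mean of the clones (log2 fold change 0.67, adjusted p = 0.000277) and in Btbd7 KO (0.66, adjusted p = 0.00369). The 5 together summed to 9.30 to 14.9 CPM in wild type, 16.6 to 26.02 in Btbd7 KO, 9.88 to 13.4 in clone 1, 24.4 to 28.1 in clone 2 and 21.1 to 24.98 in clone 3. Of 3 blood cell markers Hbb-bs was at 0, and Cd68 was at 4.02 to 12.9 CPM and rose in the mean of the clones (0.58, adjusted p = 0.00386). The 3 together summed to 4.52 to 6.19 CPM in wild type, 5.44 to 6.59 in Btbd7 KO, and 8.07 to 12.99, 9.26 to 11.01 and 4.09 to 6.63 in the 3 clones. Their part in the results below was not tested.

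Sense intronic transcripts were weakly expressed. In wild type their median level was 1.07 CPM per kilobase of exon, against 9.10 for their hosts on the same scale. The median member stood at 9.69% of its host, and 94 of the 184 stood under 10%. Only 8 members were above their host per kilobase, and for 4 of these the host was listed at 0. The other 4 were AC166575.1 in Pknox1 (162%), Gm42664 in Ptbp2 (161%), Gm44366 (148%) and Gm26930 in Gm4258 (121%). Across the 184 members the level of a member followed that of its host weakly (Spearman's rho 0.338 across genes of the same libraries, given as a description). The 10 most counted members held 35.7% of all member counts.

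Summed over all members, wild-type libraries held 557, 441, 439 and 492 CPM and Btbd7 KO libraries 443, 397, 387 and 411. The Zcchc8 KO libraries held 503, 522, 533 and 559 CPM in clone 1, 580, 553, 508 and 516 in clone 2, and 592, 540, 638 and 545 in clone 3. Every clone library was above every Btbd7 KO library, while wild-type replicate 1 lay within the range of the clones. The group means were 482 ± 55.7 CPM in wild type, 409 ± 24.7 in Btbd7 KO, and 529 ± 23.2, 539 ± 33.4 and 579 ± 46.0 in clones 1, 2 and 3 (SD, n = 4). Without replicate 1 the wild-type mean was 457 ± 30.4 (SD, n = 3). Without the transcript Gm29170, described below, the means were 470 ± 54.9 CPM in wild type, 398 ± 24.9 in Btbd7 KO, and 486 ± 19.7, 499 ± 32.9 and 539 ± 46.6 in the 3 clones (SD, n = 4).

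The first comparison asks which sense intronic transcripts differ between the Zcchc8 KO clones and wild type. A group of 23 members rose in the mean of the 3 clones and 8 fell, at an adjusted p under 0.05 in edgeR's quasi-likelihood test, and 129 were not called. A further 24 members, with 50 to 125 counts in all, did not pass the filter on low counts. Among the 160 tested, the share that rose, 14.4%, was below the 16.2% of all 15297 genes tested, and the share that fell, 5%, was below the 19.9% of all genes, with 36.1% of all genes called in either direction. The median log2 fold change was 0.22 for tested members and -0.01 for all genes. The share of risen members is thus near the background of this comparison, and the results below are about the single transcripts and not the class. Without TMM factors 24 members rose and 5 fell, while the calls over all genes went from 2474 higher and 3046 lower to 3229 higher and 2005 lower. With libraries summed by cell line, so that 3 clones stand against wild type and Btbd7 KO, 11 members rose and 0 fell. The share of all genes called in that fit is not given here, so these counts are not read as a result about the class. Under that stricter comparison Gm29170, Gm17491, Gm29358 and Gm42702 kept their calls among the risen members named below. Gm43514 did too, but it needed the clones to reach the count limit.

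The members were also measured less precisely than most genes. The median standard error of the log2 fold change was 0.43 for tested members, 0.12 for all genes and 0.073 for the hosts. In single clones, 19 members rose and 9 fell in clone 1 (background 16.7% and 19.1%), 20 and 5 in clone 2 (16.1% and 16.2%), and 19 and 2 in clone 3 (14.0% and 15.3%). Called higher in the mean and in each clone were 15 members, or 9.38% of those tested, near the 7.64% of all genes. No member was called lower in the mean and in each clone by edgeR, against 5.82% of all genes. At an unadjusted p under 0.05 the count of such lower members was 2, and by DESeq2 it was 0.

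Gm29170 gave the lowest p of the class. It is a single-exon transcript of 3666 bases on chromosome 1 (143777642 to 143781307, plus strand), in intron 1 of Uchl5, which encodes a deubiquitinase of the proteasome. Its level was 14.2, 12.8, 11.2 and 10.3 CPM in wild type and 12.4, 11.7, 13.03 and 10.6 in Btbd7 KO. It was 35.3, 48.3, 44.4 and 46.7 CPM in clone 1, 40.3, 40.7, 33.7 and 45.6 in clone 2, and 40.8, 38.8, 38.4 and 41.4 in clone 3. All 12 clone libraries lay above all 8 others. The log2 fold change was 1.76 (SE 0.104, adjusted p = 1.77e-12), with 1.85, 1.72 and 1.72 in the 3 clones, and -0.02 in Btbd7 KO (adjusted p = 0.927).

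Uchl5 moved the other way. Its level was 61.1, 82.4, 96.2 and 83.3 CPM in wild type, and it lay between 52.1 and 73.1 CPM in the 12 clone libraries, so that the groups overlapped through wild-type replicate 1. Its log2 fold change was -0.37 (SE 0.0818, adjusted p = 0.000809). Gm29170 held 157 ± 52.9 counts per 1000 Uchl5 counts in wild type (SD, n = 4) and 724, 618 and 645 on average in the 3 clones.

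Other well-expressed members near the host's start rose by less. Gm17491, in intron 1 of the phosphate transporter gene Slc20a2, starts 3503 bases from the host's start. It was at 14.2, 11.1, 12.3 and 16.8 CPM in wild type, 13.1, 13.6, 10.8 and 9.63 in Btbd7 KO, 21.9, 27.1, 27.1 and 28.4 in clone 1, 24.3, 18.9, 19.5 and 16.2 in clone 2, and 19.6, 23.7, 27.9 and 19.5 in clone 3. One clone 2 library lay below the highest wild-type library and 11 of 12 lay above all 4. The log2 fold change was 0.73 (SE 0.13, adjusted p = 9.36e-05), while Slc20a2 fell by 0.41 on the log2 scale (adjusted p = 3.17e-06).

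AC166575.1, in intron 1 of the homeobox gene Pknox1, starts 2429 bases from the host's start. It was at 9.75, 9.14, 10.4 and 10.3 CPM in wild type and at 8.74, 11.9, 11.7 and 8.87 in Btbd7 KO. The clones held 14.98, 13.9, 18.8 and 17.2 CPM, 18.4, 18.5, 14.9 and 13.2 CPM, and 14.9, 11.05, 16.7 and 15.2 CPM. All 12 were above the wild-type libraries, and the lowest clone 3 library lay within the range of Btbd7 KO. The log2 fold change was 0.66 (SE 0.13, adjusted p = 0.000272), and that of Pknox1 was -0.10 (adjusted p = 0.427).

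Gm15903, in intron 1 of Nipsnap2, which encodes a mitochondrial protein, starts 1983 bases from the host's start. It was at 7.93, 8.27, 8.60 and 8.56 CPM in wild type and at 7.23, 7.90, 7.20 and 5.74 in Btbd7 KO. Clone 1 held 15.5, 11.1, 13.3 and 12.99 CPM, clone 2 held 16.7, 13.5, 11.98 and 9.74, and clone 3 held 13.3, 10.7, 12.7 and 13.9. All 12 clone libraries lay above all 8 others. The log2 fold change was 0.63 (SE 0.134, adjusted p = 0.000585), while Nipsnap2 fell by 0.29 on the log2 scale (adjusted p = 0.0091).

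**Figure D1:**
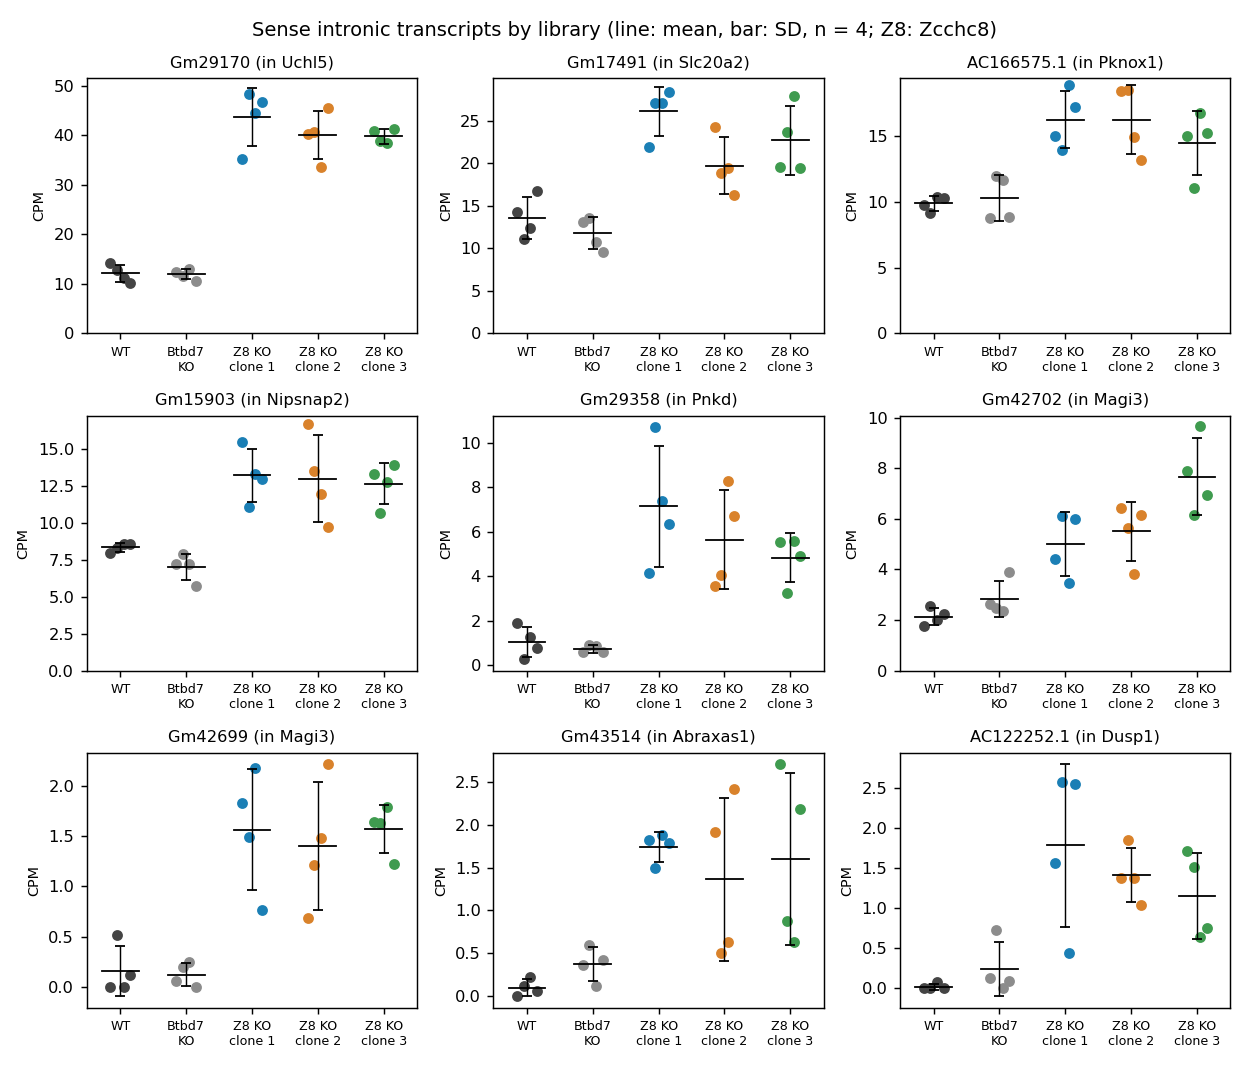
Level of 9 sense intronic transcripts in each library, in CPM (vertical axes, each starting at or near 0), for wild type (WT), Btbd7 KO and the 3 Zcchc8 KO clones; lines are means and bars are SD of 4 libraries. For Gm29170 the 12 clone libraries lie between 33.7 and 48.3 CPM and the 8 others between 10.3 and 14.2.

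The farthest risen members in fold were close to the detection limit in wild type. AC122252.1, a 3-exon gene within the span of Dusp1, a phosphatase of MAP kinases, had 1 count in the 4 wild-type libraries, 14 in Btbd7 KO and 181 in the 12 clone libraries. It is one of the 2 tested members with under 20 counts in wild type and Btbd7 KO together, and reached the count limit through the clones. Its CPM was 0, 0, 0.0748 and 0 in wild type, and it ran from 0.434 to 2.57 in the clones. In Btbd7 KO it was 0.121, 0.73, 0 and 0.0845 CPM, also called higher (log2 fold change 3.34, adjusted p = 0.0439). It does not lie within a single intron, and Dusp1 itself rose (log2 fold change 0.98, adjusted p = 0.00497).

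Gm43514 starts 212 bases into Abraxas1, a gene of a BRCA1-associated deubiquitinase complex. It had 6 counts in wild type, 21 in Btbd7 KO and 201 in the clones, a rate ratio of 16.6 over wild type (95% counting interval 7.47 to 45.6). It too needed the clones to reach the count limit, so this ratio and its interval are a description and not a test. Its CPM was 0, 0.116, 0.224 and 0.0586 in wild type and 0.362, 0.597, 0.124 and 0.422 in Btbd7 KO. Clone 1 held 1.82, 1.49, 1.88 and 1.78 CPM, clone 2 held 1.92, 0.499, 0.627 and 2.42, and clone 3 held 2.71, 0.879, 0.637 and 2.18. All clone libraries lay above all wild-type libraries, and a clone 2 library lay within the range of Btbd7 KO. The fitted log2 fold change, given as a description, was 3.89 (SE 0.683), and Btbd7 KO was not called (1.92, adjusted p = 0.11). Abraxas1 was at -0.04 (adjusted p = 0.761).

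Gm29358, in intron 2 of Pnkd, rose with a log2 fold change of 2.48 (SE 0.359, adjusted p = 6.29e-06). It was at 1.89, 0.289, 1.27 and 0.762 CPM in wild type and between 3.26 and 10.7 CPM in the clones, and all 12 clone libraries lay above all 8 others. Exons of Tmbim1 overlap it on the opposite strand, and whether counting used the strand is not given in the sources used here. For Gm49617, in Chaf1b, a subunit of the CAF-1 histone chaperone, the fitted log2 fold change, given as a description, was 2.23 (SE 0.628). Its level was 0.256 ± 0.219 CPM in wild type and 1.30 ± 0.559, 0.998 ± 0.0966 and 1.58 ± 0.510 in the 3 clones (SD, n = 4).

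A pair of low members rose in Btbd7 KO about as they did in the clones. Gm43577, in intron 5 of the kinase gene Cdk14, had 4 counts in wild type, 28 in Btbd7 KO and 74 in the clones. Its log2 fold change was 2.98 in the mean of the clones, given as a description, and 2.87 (adjusted p = 0.0306) in Btbd7 KO. Gm11722, in intron 1 of the proteasome subunit gene Psmd12, had 7, 32 and 81 counts. Its log2 fold change was 2.43 in the mean of the clones, also a description, and 2.38 (adjusted p = 0.034) in Btbd7 KO. With AC122252.1 they were 3 of the 23 risen members that were called higher in Btbd7 KO too. Another 2 of the 23, B930095G15Rik in Farp1 and Gm44699 in Actn4, were called lower there, and 18 were not called. The difference between the clones and Btbd7 KO was not tested.

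Magi3, which encodes a scaffold protein of cell junctions, holds 11 members, of which 10 were tested. Magi3 itself fell by 0.42 on the log2 scale (SE 0.0649, adjusted p = 1.39e-05). Of the 10, Gm42702 and Gm42699 rose, Gm43256 fell and 7 were not called. Gm42702 starts 80373 bases into the gene, in intron 1, and was at 1.76, 2.55, 2.02 and 2.23 CPM in wild type and at 2.65, 2.46, 2.36 and 3.89 in Btbd7 KO. Clone 1 held 4.43, 6.09, 3.47 and 5.99 CPM, clone 2 held 6.44, 5.63, 3.82 and 6.15, and clone 3 held 7.90, 6.15, 9.69 and 6.95. All 12 lay above wild type and 2 lay below the highest Btbd7 KO library, with a log2 fold change of 1.47 (SE 0.22, adjusted p = 1.04e-05).

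Gm42699 starts 104679 bases into Magi3, also in intron 1. It was at 0, 0.521, 0 and 0.117 CPM in wild type, 0.0603, 0.199, 0.248 and 0 in Btbd7 KO, 1.82, 1.49, 2.17 and 0.764 in clone 1, 0.685, 1.21, 1.48 and 2.21 in clone 2, and 1.64, 1.63, 1.78 and 1.23 in clone 3. No clone library overlapped the other groups. It had 11 counts in wild type, 6 in Btbd7 KO and 194 in the clones. It is the other tested member with under 20 counts in wild type and Btbd7 KO together. Its fitted log2 fold change, 3.09, is given as a description. Members nearer the start, Gm43256 at 30181 bases and Gm43260 at 37333 bases, were at -0.55 (adjusted p = 0.0421) and -0.42 (adjusted p = 0.127). Without wild-type replicate 1 Gm43256 was at -0.01.

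**Figure D2:**
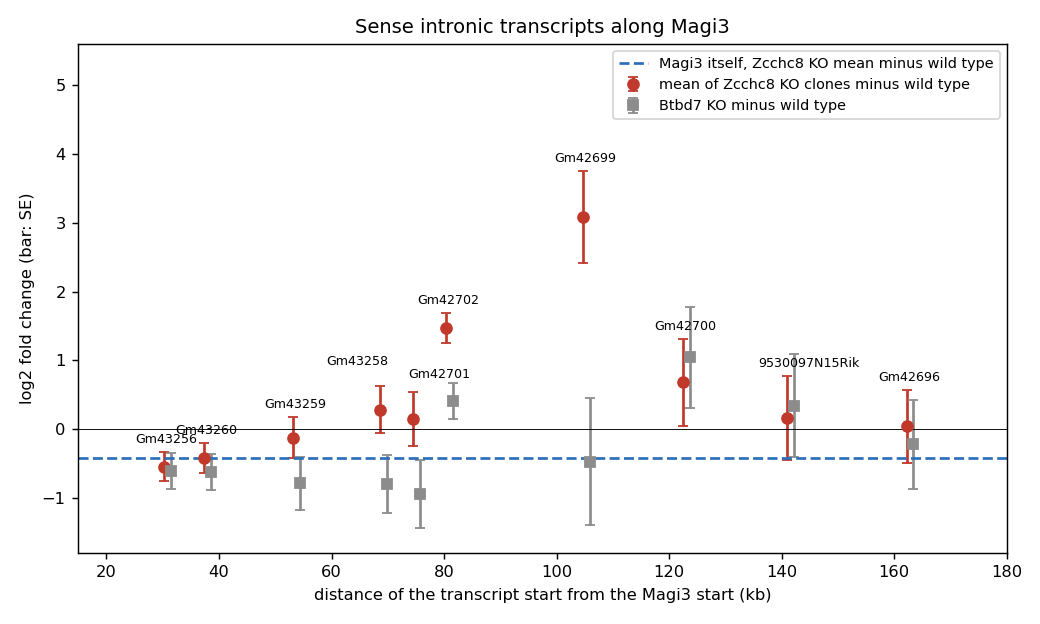
Log2 fold change against wild type (vertical axis, bars SE) of the 10 tested sense intronic transcripts of Magi3 by the distance of their start from the Magi3 start in kilobases (horizontal axis), for the mean of the Zcchc8 KO clones (circles) and Btbd7 KO (squares); the dashed line is Magi3 itself. Gm42702 and Gm42699 stand above the others at 1.47 and 3.09.

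For comparison with the splits that follow, 14.4% of the tested members rose and 5% fell, and 6 of the 8 that fell lose their call without wild-type replicate 1. By place in the host, 9 of 26 tested members that start within 5 kb of the host's start rose and 1 fell. Of 73 that start between 5 and 50 kb, 5 rose and 5 fell, and of 61 beyond 50 kb, 9 rose and 2 fell. In intron 1, 11 of 58 rose and 3 fell, and in later introns 10 of 94 rose and 5 fell. Of 70 members with 2 or more exons, 15 rose and none fell, and of 90 with 1 exon, 8 rose and 8 fell. The median of the tested members' log2 fold changes was 0.33 within 5 kb, 0.06 from 5 to 50 kb and 0.30 beyond 50 kb. These splits are described and not tested, since genes are not replicates of a condition.

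The second comparison sets each member beside its host in the same library. Of 143 tested hosts, 13 rose and 50 fell in the mean of the clones (backgrounds 16.2% and 19.9%), with a median log2 fold change of -0.10. Without TMM factors 19 hosts rose and 28 fell, and over cell lines 3 rose and 1 fell, both given without shares of all genes. For the 23 risen members the host was higher for 3, lower for 6 and not called for 14. For the 8 fallen members the host was lower for 7 and not called for 1. The 6 risen members whose hosts fell were Gm29170, Gm17491, Gm15903, Gm42699, Gm42702 and Gm43577. In the risen members whose hosts rose, the hosts were Dusp1, Gm4258 and Tcf7l2, and for Gm26930 in Gm4258 the 2 values were alike at 0.79 and 0.67.

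The ratio of member to host, which no scaling of a library can change, rose for 22 of 156 testable members and fell for 1 in limma's fit over 1414 nested gene pairs. The background was 14.4% higher and 1.41% lower, so the 14.1% of members is near it. The median change of the log2 ratio was 0.49 for members and 0.36 for all pairs. Of the 23 risen members, 18 also had a higher ratio. The ratio holds the same member counts that gave the call, so this is not a separate check of the rise. Among members named above it changed by 3.67 for Gm43514, given as a description, 2.88 for Gm29358 (adjusted p = 1.16e-05) and 2.12 for Gm29170 (SE 0.142, adjusted p = 1.47e-10). It was 1.15 for Gm17491 (adjusted p = 1.8e-05), 0.89 for Gm15903 (adjusted p = 0.000597) and 0.73 for AC166575.1 (adjusted p = 0.00151).

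For 4 members the ratio rose without a call of the member itself, namely Gm43773, Gm43111, Gm15742 and Gm28499, which were named after their values were seen. All 4 had no count in wild-type replicate 1, and without that library none of the 4 was called by limma (adjusted p of 0.315, 0.222, 0.188 and 0.162). In Btbd7 KO no ratio of a member was called by limma (background 0.283%), and 15 were at an unadjusted p under 0.05. The members called in the clones whose ratio moved least were Gm43256 in Magi3 (0.0048), Gm42664 in Ptbp2 (-0.02) and Gm26930 in Gm4258 (0.20), none of them called. Without wild-type replicate 1 these were 0.47, 0.03 and 0.45, with adjusted p of 0.123, 0.951 and 0.28. Gm42664, the most counted member, fell by 0.44 on the log2 scale as Ptbp2, a splicing regulator, fell by 0.39.

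**Figure D3:**
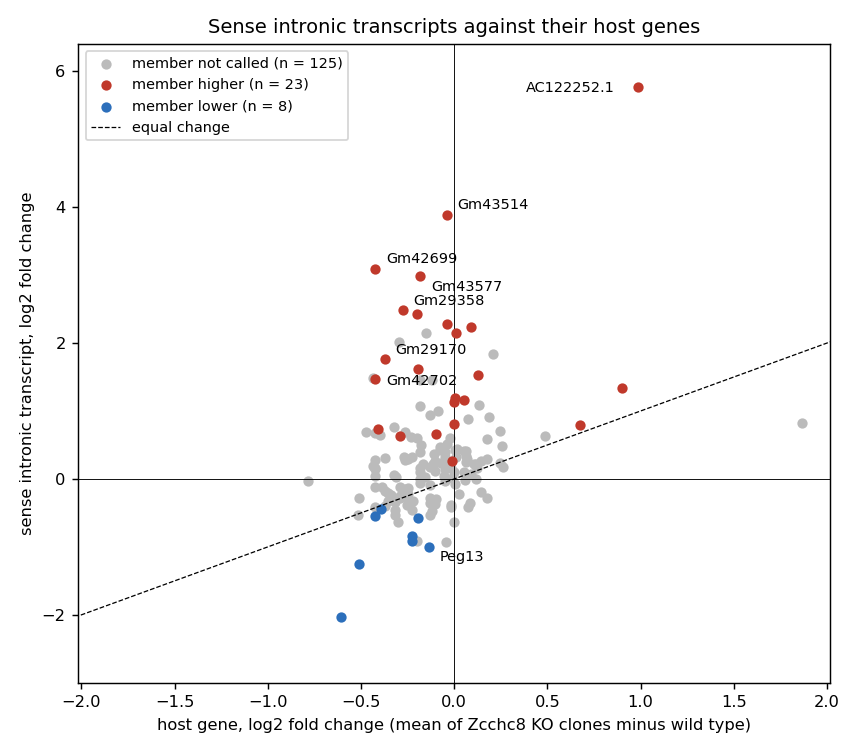
Log2 fold change of the host gene (horizontal axis) and of the sense intronic transcript (vertical axis), mean over the 3 clones of Zcchc8 KO against wild type, for 156 members with a testable ratio; the dashed line marks equal change. Of these, 23 members are called higher, 8 lower and 125 not called, and Gm29170 lies at 1.76 with its host at -0.37.

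The 8 members that fell rest largely on wild-type replicate 1. That library was the highest of the 4 wild-type libraries in 6 of the 8, and it held no count for 71 of the 184 members. Gm42664 was at 56.6, 25.2, 32.6 and 35.1 CPM in wild type and between 22.5 and 33.7 CPM in the clones. Gm43256 was at 20.2, 7.23, 7.55 and 7.56 CPM in wild type and between 5.21 and 10.3 in the clones. Without replicate 1 their log2 fold changes were -0.15 (adjusted p = 0.252) and -0.01 (adjusted p = 0.957) in place of -0.44 and -0.55.

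Without that library 165 members were tested, and 27 rose and 2 fell, while 17.55% of all genes tested rose in that fit. The rise of members was thus again near the background. Of the 23 risen members 22 kept their call, and of the 8 fallen members 2 did. The 2 fallen members that kept it were Peg13 and Gm43696, and the risen member that lost its call was 4933413C19Rik. The median log2 fold change of members was then 0.10. For the ratio to the host, 20 of 161 rose, 15 of them among the 22 called with all libraries, and the median was 0.22 for members and 0.21 for all nested pairs.

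**Figure D4:**
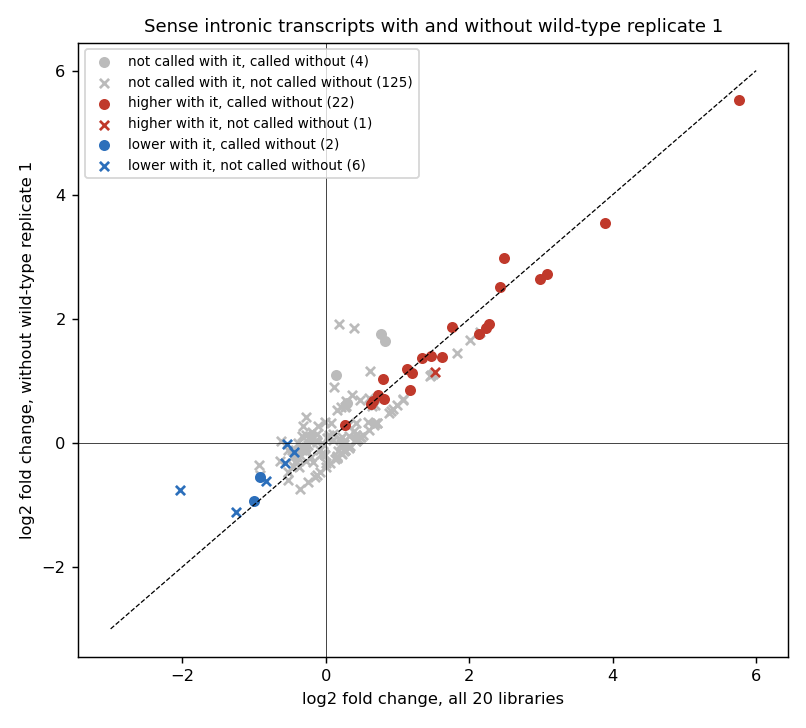
Log2 fold change of sense intronic transcripts, mean over the 3 clones of Zcchc8 KO against wild type, with all 20 libraries (horizontal axis) and without wild-type replicate 1 (vertical axis); the dashed line marks equal values. Filled circles are called without that library and crosses are not, and 6 of the 8 members called lower with it are crosses.

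Peg13, the imprinted non-coding gene within Trappc9, fell in clone 3 and was not called in the others. It was at 9.75, 5.27, 10.6 and 10.4 CPM in wild type and at 10.1, 8.96, 9.06 and 8.62 in Btbd7 KO. Clones 1 and 2 held 7.42, 6.36, 7.38 and 4.71 CPM and 7.95, 7.48, 6.33 and 7.88 CPM, while clone 3 held 2.49, 2.13, 1.27 and 1.64. The clone 3 libraries lay below every other library. The log2 fold changes were -0.48, -0.28 and -2.23 in the 3 clones, and the test of equal clones gave an adjusted p of 2.02e-06. Trappc9 was at -0.14 in the mean of the clones (adjusted p = 0.343).

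Unequal clones were called for 7 of the 160 tested members, against 28.5% of all genes. Gm43331 in Rap1a was at -0.92, -0.25 and 0.52 in clones 1, 2 and 3 (adjusted p = 0.00379 for unequal clones). Gm26930 was at 0.20, 0.91 and 1.26 (adjusted p = 0.00431), and Gm17024 in Ifrd1 at -0.71, -0.12 and 0.48 (adjusted p = 0.0177).

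In the negative control 4 members rose and 10 fell in Btbd7 KO against wild type, or 8.75% of those tested, against 15.7% of all genes (7.73% higher and 8.0% lower). Of 143 tested hosts 11 rose and 24 fell there. The fallen members included all 3 of Lrig2, a leucine-rich repeat membrane protein gene. 4930509H03Rik was at 4.75, 2.66, 2.84 and 3.46 CPM in wild type and at 1.15, 0.332, 1.12 and 1.18 in Btbd7 KO, a log2 fold change of -1.87 (SE 0.389, adjusted p = 0.00127). Gm43696 and A530041M06Rik were at -1.27 (adjusted p = 0.00206) and -1.65 (adjusted p = 0.00804). For 4930509H03Rik, Gm43696 and A530041M06Rik the Btbd7 KO libraries lay below every wild-type library.

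Lrig2 itself fell in Btbd7 KO by 0.59 on the log2 scale (adjusted p = 2.04e-05), from 50.2, 45.9, 55.1 and 55.5 CPM to 33.0, 34.1, 37.5 and 32.5. Man1a2, which encodes a mannosidase of the Golgi, had 3 of its 4 members lower in Btbd7 KO, with Man1a2 at -0.21 (adjusted p = 0.0277). Gm43462, Gm42869 and Gm43466 were at -0.85, -0.97 and -0.92 (adjusted p = 0.0408, 0.0394 and 0.0256). Wild-type replicate 1 held the most wild-type counts of Gm43462 and Gm43466, at 233 and 154, but not of Gm42869. Their values in Btbd7 KO without that library are not given here, and fewer members were called in Btbd7 KO without it. Gm28119, which overlaps Mir125b-1, was higher in Btbd7 KO (1.08, adjusted p = 0.0122) and not called in the clones (0.42, adjusted p = 0.209). The comparisons with the clones and with Btbd7 KO share the wild-type libraries.

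Among the other most counted members, Gm38190 in Tiprl (-0.28, adjusted p = 0.118), Gm28229 (-0.28, adjusted p = 0.115) and Gm48027 in Arid4b (0.02, adjusted p = 0.917) were not called in the clones. B930095G15Rik rose by 0.27 (SE 0.0839, adjusted p = 0.014), from 21.9 ± 1.18 CPM in wild type to 27.6 ± 2.95, 25.7 ± 2.75 and 25.9 ± 1.89 in the clones (SD, n = 4), and Farp1 was at -0.01.

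The deposited PROMPT table, which lists counts over a promoter-upstream region for each gene identifier in 19 libraries without wild-type replicate 1, gives a readout that the choice of members did not use. The extent of the regions is not given in the sources used here. For the hosts, 75 of 99 tested regions rose in the mean of the clones and 1 fell, against 39.9% and 3.31% of all 17655 regions. The median log2 fold change was 1.66 for host regions and 0.45 for all regions. That background covers gene identifiers of every type, while the host was protein-coding for 180 members. No share for expressed protein-coding genes was set beside it, so the difference is not shown to be particular to these hosts. In single clones 66, 67 and 65 rose (backgrounds 39.3%, 36.0% and 36.7%), and 54 rose in each clone. Scaled within the PROMPT table, where the median of all regions moves to 0.02, 57 host regions rose, given without the share of all regions. In Btbd7 KO none rose and 1 fell (backgrounds 1.35% and 1.68%) by edgeR, with 14 at an unadjusted p under 0.05 in either direction and none higher by DESeq2.

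The region of Slc20a2 was at 4.10, 3.55 and 5.13 CPM in wild type, 5.69, 5.33, 4.19 and 3.81 in Btbd7 KO, and between 8.29 and 12.1 in the clones. All 12 clone libraries lay above the 7 others, with a log2 fold change of 1.22 (SE 0.173, adjusted p = 1.85e-08). The region of Magi3 was at 1.33, 1.11 and 0.991 CPM in wild type, and the clones held 3.15, 1.90, 2.04 and 1.93 CPM, 3.05, 3.45, 3.82 and 3.27 CPM, and 2.06, 2.26, 1.28 and 2.17 CPM. A clone 3 library lay below the highest wild-type value, and the log2 fold change was 1.11 (SE 0.334, adjusted p = 0.00476). The Uchl5 region, at 0.330 ± 0.0638 CPM in wild type (SD, n = 3), did not pass the filter on low counts.

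Where the region of a host rose and the host gene could be tested, the gene itself rose for 9, fell for 29 and was not called for 36 of 74. The host region rose for 11 of 17 risen members with a tested one, and for 84 of 98 other members. These counts are of members, so a region of a host with several members enters for each of them. For the members' own regions, of 178 tested, 21 rose and 7 fell, or 11.8% higher against the background of 39.9%, with a median of 0.07. Members start inside their hosts, so these regions can lie within the host and hold reads of its precursor. The background regions were not matched for such a place. Scaled within the PROMPT table, 11 rose and 61 fell, so the direction of this set depends on the scaling. The shares of all regions at that scaling are not given here. Regions of 10 of the 23 risen members were called higher. Among them were Gm42699 (2.89), Gm17491 (0.97), Gm15903 (0.88) and AC166575.1 (0.73).

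**Figure D5:**
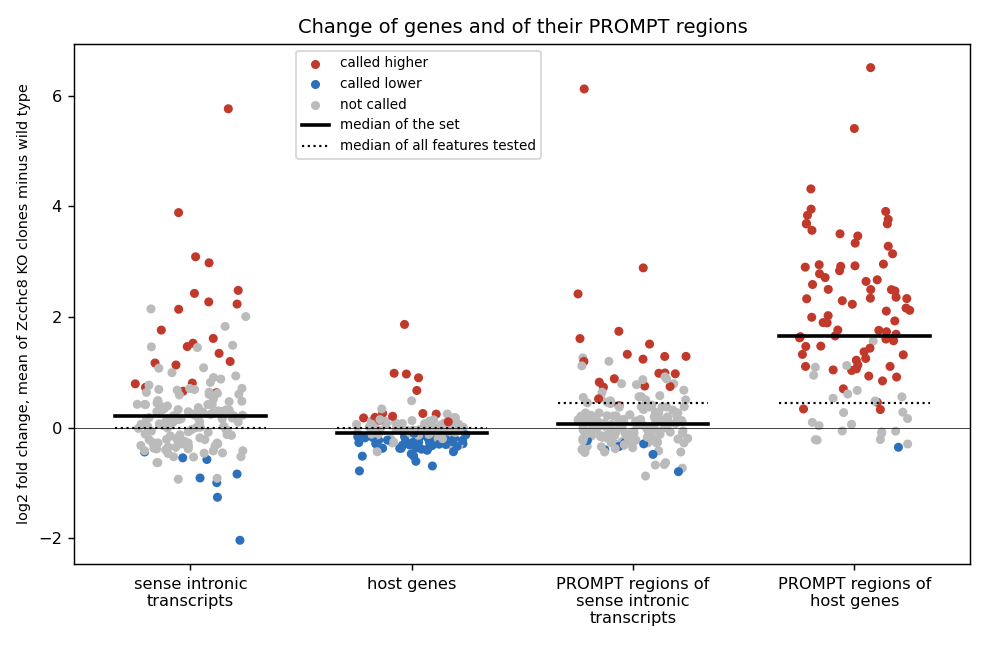
Log2 fold change, mean over the 3 clones of Zcchc8 KO against wild type (vertical axis), of tested sense intronic transcripts, their host genes, the PROMPT regions of the transcripts and the PROMPT regions of the hosts; each point is 1 gene or region, solid lines are the medians of the sets and dotted lines those of all features tested. The medians of the sets are 0.22, -0.10, 0.07 and 1.66.

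The promoters of Uchl5 and Magi3 are shown because their hosts hold the member of lowest p and the most members. They are the 300 bases around the annotated start from RefSeq on GRCm38.p6, written on the gene's strand with CG in capitals, at chr1:143777028-143777327 (plus strand) and chr3:104220357-104220656 (minus strand).
Uchl5: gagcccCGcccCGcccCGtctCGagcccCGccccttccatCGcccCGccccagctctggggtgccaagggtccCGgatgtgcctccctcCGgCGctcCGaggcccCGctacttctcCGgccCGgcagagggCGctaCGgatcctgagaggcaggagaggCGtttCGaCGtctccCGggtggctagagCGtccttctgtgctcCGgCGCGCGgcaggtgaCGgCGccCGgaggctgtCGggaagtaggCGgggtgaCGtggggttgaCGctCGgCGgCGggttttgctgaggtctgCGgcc
Magi3: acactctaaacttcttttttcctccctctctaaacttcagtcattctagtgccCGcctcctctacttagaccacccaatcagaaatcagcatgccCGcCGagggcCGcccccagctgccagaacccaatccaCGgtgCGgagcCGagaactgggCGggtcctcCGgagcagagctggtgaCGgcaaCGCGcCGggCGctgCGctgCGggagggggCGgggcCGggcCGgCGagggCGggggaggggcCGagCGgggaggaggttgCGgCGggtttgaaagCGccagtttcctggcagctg
They hold 36 and 26 CG pairs at 73.3% and 66.3% G and C. For 115 hosts matched by symbol, 150 promoters held a median of 25 CG pairs at 64.2%, against 7 at 52.7% for all 32851 promoters of the same length.

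Of 27 genes of nuclear RNA decay besides Zcchc8 (NEXT, the PAXT connection, the exosome, cap binding and Integrator), 26 were tested, and Exosc6 had no count. In the mean of the clones 1 rose and 10 fell, against 16.2% and 19.9% of all genes. Srrt, which encodes the cap-linked adaptor ARS2, rose by 0.49. The NEXT partners Rbm7 and Mtrex fell by 0.20 and 0.27, and Dis3, a catalytic subunit of the exosome, fell by 0.31 on the log2 scale.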

How the data were processed

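RNA of SIMS cells was sequenced after ribosomal depletion in a stranded total RNA protocol, per the labels' protocols, and reads were checked with FastQC and aligned with STAR 2.7.3a, per the submitters' processing notes. The authors deposited raw counts per gene for 20 libraries and raw counts per PROMPT region for 19. The counter, its strand setting, its rule for shared reads and the genome build are not given in the sources used here.

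Gene types, introns and transcripts came from GENCODE M21 on GRCm38, in which 55230 of 55471 identifiers matched. A host is the same-strand gene whose span holds the member. Counts were fitted over the whole table with edgeR 4.0.16 (TMM, filterByExpr, quasi-likelihood test, all 5 groups in 1 fit), with Benjamini-Hochberg adjustment over all genes and calls at an adjusted p under 0.05. The ratio of a member to its host was fitted with limma 3.58.1 on log2 CPM (prior count 0.5). PROMPT regions used the library sizes and TMM factors of the gene table. DESeq2 1.42.0 was an alternative. On simulated data the gene fit recovered 68% of genes changed 2-fold and 94% of those changed 4-fold, the ratio fit 35% and 72%, and the PROMPT fit 54% and 85%. The changed features were drawn from all that passed the filter and not from the members. Members had a median standard error of 0.43 against 0.12 for all genes, so these rates do not give the recovery for members. Rate ratios carry exact 95% intervals that cover counting error only.

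Named members were the 10 with the most CPM, the largest changes called in each clone, those called in Btbd7 KO or unequal between clones by p, those nearest the count limit, and those whose host moved least or most differently. The members and lists were chosen with earlier results of these data known. A single member named by this rule is not reported here.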

Additional observations from a re-analysis of the deposited data

Results flagged for a closer look

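A library stood apart from the other 3 of its group in 12 of 155 groups of named members, by Dixon's criterion. Chance meets it in about 1 in 20 groups of normally distributed values. Where the other 3 libraries hold no count, any count meets it, as for AC122252.1, Gm14376 and Gm43577 in wild type. In wild type the flagged groups were Gm43256 at 20.23 CPM, Gm45715 at 1.106 CPM, Gm14376 at 0.1495 CPM, Gm43577 at 0.299 CPM and AC122252.1 at 0.07476 CPM, all high, and Peg13 at 5.265 CPM, low. In Btbd7 KO they were Gm43256 at 8.428 CPM and AC122252.1 at 0.73 CPM, high, and Gm48027 at 6.842 CPM and 4930509H03Rik at 0.3318 CPM, low. In the clones they were B930095G15Rik at 29.78 CPM in clone 2, high, and Gm42664 at 23.98 CPM in clone 3, low.

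The 3 Zcchc8 KO clones differed from each other in 7 members by edgeR's test of equal clones. The adjusted p was 2.016e-06 for Peg13, 0.003792 for Gm43331, 0.004306 for Gm26930, 0.01768 for Gm17024, 0.02038 for Gm19409, 0.02999 for Gm43260 and 0.03761 for Gm43024.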

How the results depend on the processing

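The count of members that fell in the mean of the clones, 8, was 5 with DESeq2, 5 without TMM factors, 5 with only the groups compared, 5 at equal depth and 0 over cell lines, and the count that rose, 23, was 11 over cell lines. With only the groups compared, calls numbered 10, 11 and 12 in clones 1, 2 and 3, 2 in Btbd7 KO, 15 for unequal clones and 22 for hosts in Btbd7 KO. At equal depth Btbd7 KO had 7 called members. Hosts that rose numbered 3 over cell lines, and hosts that fell 28 without TMM factors and 1 over cell lines. Members' PROMPT regions scaled within their own table gave 11 higher and 61 lower, against 21 and 7, so this set's balance turned. Counts in this section are given without the shares over all genes or regions at each setting. The sums over cell lines leave fewer samples and also set the clones against wild type and Btbd7 KO together. The cause of these shifts was not tested.

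Leaving out 1 library at a time gave 22 to 27 risen and 2 to 10 fallen members, 23 to 33, 21 to 30 and 18 to 29 calls in clones 1, 2 and 3, 6 to 16 in Btbd7 KO and 4 to 14 for unequal clones. Hosts gave 11 to 16 risen, 38 to 51 fallen and 28 to 41 in Btbd7 KO, the ratio 19 to 31 higher and 0 in Btbd7 KO, members' PROMPT regions 18 to 21 higher and 3 to 8 lower, and hosts' regions 62 to 75 higher. Fallen members numbered 2 without wild-type replicate 1, and 5 without clone 1 replicate 3, clone 2 replicate 2 or 4, or clone 3 replicate 2 or 4. Calls in Btbd7 KO numbered 9 without wild-type replicate 1 or 4, and 8, 6 and 7 without Btbd7 KO replicates 1, 2 and 3. Unequal clones numbered 14 without wild-type replicate 1 and 4 without clone 3 replicate 3, and fallen PROMPT regions of members 3 without wild-type replicate 4.

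Replicate numbers did not pair the libraries: of 40 same-numbered pairs 2 correlated above 0.1, and 1 of 20 libraries correlated best with its own number. With the replicate number as a block 23 members rose and 7 fell, and only Gm43256 among the named members lost its call. Over cell lines 13 named changes lost their call, among them AC166575.1 (adjusted p = 0.0593) and Gm15903 (adjusted p = 0.0516). Low counts limit the class: 24 members could not be tested.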
